A study of Homo sapiens with 6 samples.

Results

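Interferon-stimulated genes are the antiviral and signalling genes that a cell switches on when it meets a type I interferon. The group examined here was a list of 41 such genes with their STAT and IRF regulators, found by gene symbol among the 57861 genes with usable values. All 41 were present, each in a single row with no failed estimate. They were measured by RNA sequencing in MOLP-8, a long-established cell line from a human myeloma, in 6 libraries. The 3 control libraries came from cells given the lentiCRISPRv2 vector with a scrambled guide, and the 3 LIN28B KO libraries from cells given the same vector with a guide against LIN28B, which binds let-7 precursors and keeps them from maturing. All cells were selected with puromycin at 1 ug/mL, and the labels describe no interferon treatment in either group. The titles of the second group carry KD where its condition label says KO, and nothing in the labels says whether cells were cloned. Separate cultures are not named in the labels, so the p-values speak only to library-to-library spread, which may be technical.

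As background, type I interferon binds a receptor made of IFNAR1 and IFNAR2, which activates the kinases JAK1 and TYK2. These phosphorylate STAT factors, among them STAT2, which form a complex with IRF9 that enters the nucleus and binds a short promoter sequence, the interferon-stimulated response element. The genes switched on in this way block viral entry, sense and degrade viral RNA, modify proteins with ISG15, and raise the level of the STAT and IRF factors themselves. Myeloma is a malignancy of plasma cells, the antibody-secreting cells of the B lineage.

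The response element can be seen directly in the promoters. The stretches printed here run from 150 bases before to 10 bases after the annotated start in RefSeq (GRCh38.p14), read 5′ to 3′ on the strand of the gene, and capitals mark the core GAAANNGAAA. They were chosen because IFITM1, IFITM3 and ISG20 had all 3 LIN28B KO values below all 3 controls. STAT2 and SP100 were chosen because they passed the limma test as higher. On the deposited scale they did so only without LIN28B KO library 3 and over protein-coding genes, not with all 6 libraries. BST2 was the most abundant gene of the group. The stretches lie at chr11:313890-314049 (plus strand), chr11:320851-321010 (minus strand), chr15:88638866-88639025 (plus strand), chr12:56360098-56360257 (minus strand), chr2:230416051-230416210 (plus strand) and chr19:17405621-17405780 (minus strand).
IFITM1: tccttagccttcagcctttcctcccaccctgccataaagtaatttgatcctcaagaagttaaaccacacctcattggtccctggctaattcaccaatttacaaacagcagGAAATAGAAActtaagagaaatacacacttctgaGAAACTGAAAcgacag
IFITM3: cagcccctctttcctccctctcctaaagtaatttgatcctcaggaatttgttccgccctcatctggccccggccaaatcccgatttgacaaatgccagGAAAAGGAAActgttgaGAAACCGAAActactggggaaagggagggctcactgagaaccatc
ISG20: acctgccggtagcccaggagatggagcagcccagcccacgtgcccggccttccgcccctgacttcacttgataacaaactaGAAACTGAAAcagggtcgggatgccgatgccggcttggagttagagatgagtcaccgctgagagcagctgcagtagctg
STAT2: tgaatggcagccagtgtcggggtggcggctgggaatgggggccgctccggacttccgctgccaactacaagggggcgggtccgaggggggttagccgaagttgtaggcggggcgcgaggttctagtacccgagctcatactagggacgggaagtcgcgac
SP100: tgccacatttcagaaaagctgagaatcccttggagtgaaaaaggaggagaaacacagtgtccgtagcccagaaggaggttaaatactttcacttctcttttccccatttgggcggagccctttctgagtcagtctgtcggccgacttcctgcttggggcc
BST2: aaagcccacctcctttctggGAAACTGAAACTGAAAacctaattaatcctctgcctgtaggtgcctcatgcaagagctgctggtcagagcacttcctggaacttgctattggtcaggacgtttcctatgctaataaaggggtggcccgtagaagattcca
IFITM1 and IFITM3 each held 2 separate cores close to the start, ISG20 held 1, and BST2 held 2 that overlap in a single run of repeated GAAA units. The stretches of STAT2 and SP100 held none, which says only that these letters are not in this window.

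Of the 41 genes, 32 matched the promoter table by gene ID or symbol, and their full windows ran from 250 bases before to 50 after the start. The core GAAANNGAAA, searched on both strands with overlapping matches counted, was found in 22 of the 32 (68.75%), against 4.376% of 27305 genes in the table (3.574% of 35116 promoters). The 22 were picked from a list defined by interferon induction, so this share describes the list. At least 2 cores were present in 15 of them. The site of STAT dimers, TTCNNNGAA, was found in 10 of the 32 (31.25%), against 9.376% of genes. The median control level of the genes with a core was 2.99 FPKM (fragments scaled to transcript length and library size), with 9 of 22 under 1 FPKM, and the range ran from 0.0316 for IFIT1 to 598 for BST2. The 10 genes without a core, among them STAT2, IRF9, IRF1, SP100 and DDX58, had a median of 17.2 FPKM, with 1 under 1 FPKM. PARP9 and DTX3L, neighbours read in opposite directions, shared a single core at chr3:122564332-122564341 in the same build.

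**Figure D1:**
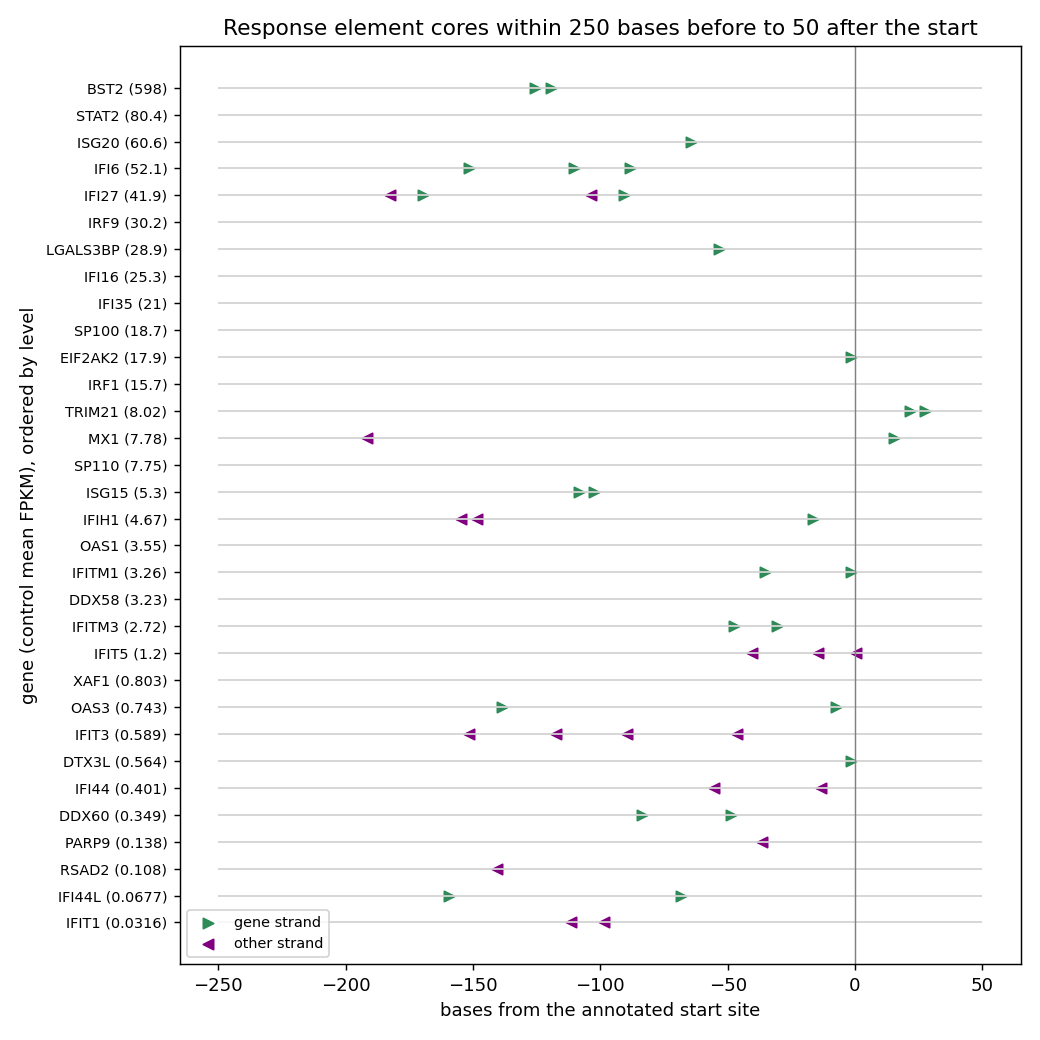
Positions of the response element core in the promoters of the 32 matched genes. The x axis is the distance in bases from the annotated start site, each grey line is 1 gene's window, triangles mark cores on the gene's strand or the other strand (for genes with several annotated starts, all are drawn), and genes are ordered by mean control FPKM. Cores cover the whole range of levels, and 10 of the 32 genes have none.

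LIN28B itself was 23.3, 24.3 and 25.5 FPKM in control cells, against 8.41, 8.17 and 5.84 FPKM after LIN28B KO, a log2 fold change of -1.66 (adjusted p = 0.0207). With any 1 of the controls, or of LIN28B KO libraries 1 and 2, left out, the adjusted p lay between 0.0675 and 0.185. LIN28B KO library 3 differed from the other libraries: it had 17676 genes at 1 FPKM or more against 15356 to 15932, it had 28.7% of 349 olfactory receptor genes above 0 against 9.46% to 14.6%, and its genes between 20 and 100 FPKM were shifted by a median log2 of -0.50 against the control mean. Results are therefore given with all 6 libraries (15803 genes tested) and without that library (5 libraries, 11308 protein-coding genes tested). Fragment equivalents, computed from the deposited bounds, express how narrow the bounds of a gene are for its level. Summed over genes they were 8368314, 6310855 and 7076587 in the controls. They were 5596934, 4808209 and 4909493 in LIN28B KO, each below every control. This sum depends on the width of the bounds and is not a direct measure of depth. Depth estimated from single-fragment steps in the bounds, relative to control library 1, was 0.717 and 0.814 in the other controls. It was 0.638, 0.533 and 0.719 in LIN28B KO. On that measure LIN28B KO library 3 did not lie below control library 2. Plasma cell markers were abundant, with XBP1 at 1013 to 1049 FPKM and SDC1 at 303 to 326 FPKM in the controls. The 9 listed markers that were found were all above 1 FPKM. Markers of other cells were low: over 9 T and NK cell markers the summed level was 1.93 to 2.19 FPKM in controls and 3.20 to 5.20 FPKM in LIN28B KO, with CD3D, NKG7 and GZMB listed at 0 throughout. Over 8 myeloid markers the sums were 1.83 to 2.84 and 4.95 to 9.55 FPKM (FCGR3A listed at 0), over 6 dendritic cell markers 0.589 to 0.724 and 0.631 to 1.56 FPKM (CD1C and FCER1A listed at 0), over 5 stromal markers 1.17 to 2.42 and 1.69 to 8.34 FPKM (none listed at 0 throughout), and over 5 erythroid markers 0.1001 to 1.01 and 0.0698 to 0.619 FPKM (HBA1 and HBA2 listed at 0). The part of these differences in the results below was not tested.

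Without added interferon, the levels of these genes in MOLP-8 spanned a wide range. Of the 41 genes, 15 had a control mean of at least 10 FPKM, 13 lay between 1 and 10 FPKM and 13 lay under 1 FPKM. BST2, the membrane tether that holds budding virus particles at the cell surface, was the highest by far at 596, 581 and 617 FPKM in the controls, above 99.1% of tested genes. STAT2, ISG20, IRF2, IFI6 and IFI27 followed at control means of 80.4, 60.6, 52.4, 52.1 and 41.9 FPKM. At the other end, several of the most strongly interferon-inducible genes were close to absent: IFIT1, IFIT2, IFI44L, USP18 and RSAD2 had control means of 0.0316, 0.00953, 0.0677, 0.106 and 0.108 FPKM. In all 6 libraries 8 genes stayed under 1 FPKM.

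**Figure D2:**
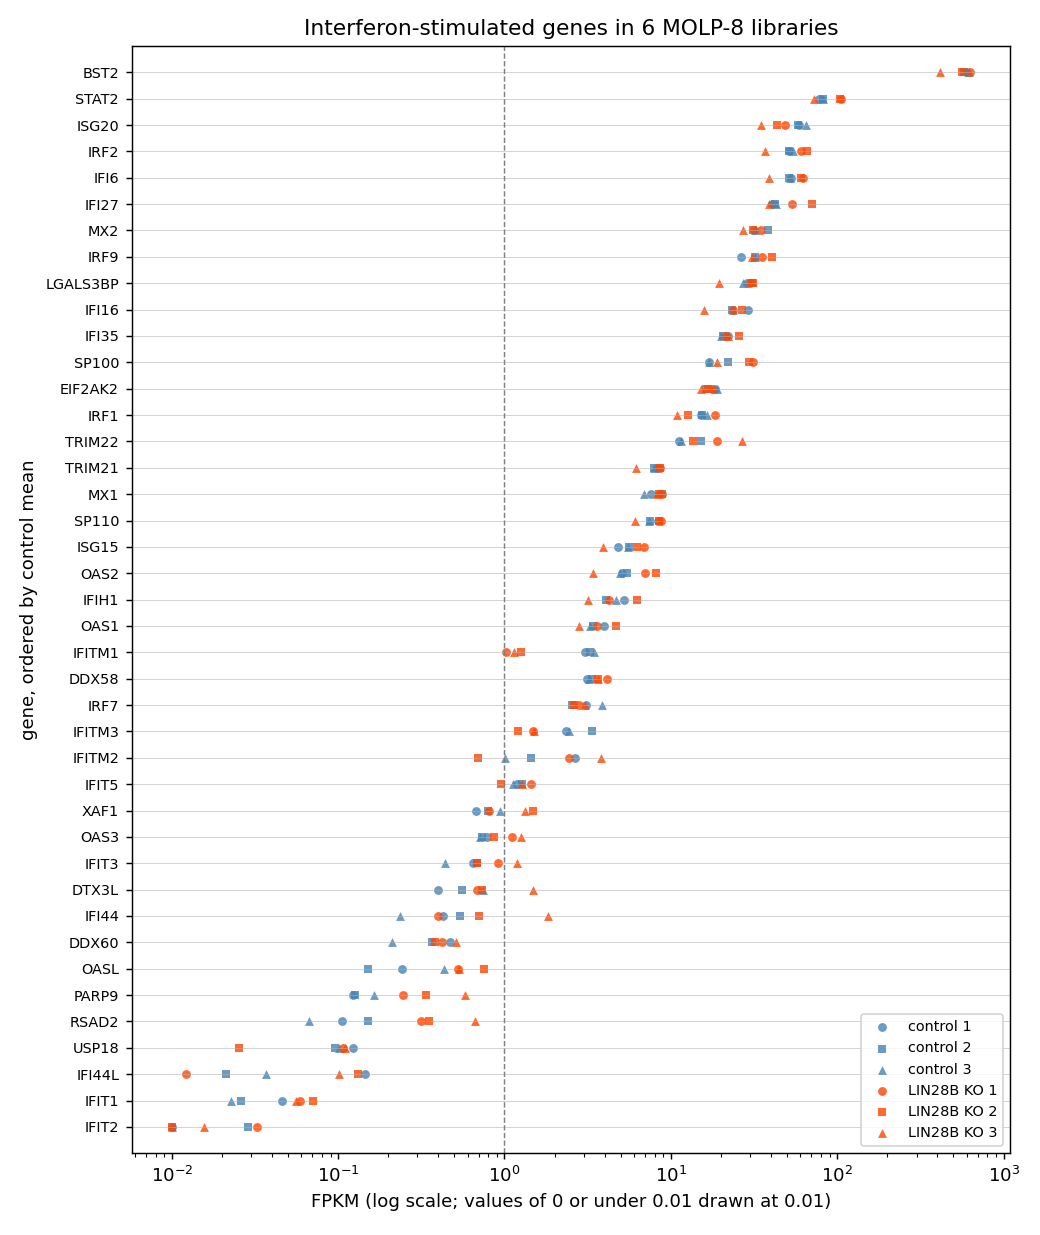
FPKM of the 41 interferon-stimulated genes in each library on a log axis, with genes ordered by control mean and values of 0 or under 0.01 drawn at 0.01. The dashed line marks 1 FPKM, and the levels run from IFIT2 near 0 to BST2 at about 598 in the controls.

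Few of these genes passed a test between the groups. Of the 28 that passed the level filter (at least 1 FPKM in at least 3 libraries), with all 6 libraries none passed an adjusted p of 0.05 in limma, and IFITM1, IFITM3 and ISG20 had an unadjusted p under 0.05. Over all genes tested, 0.0633% were called higher and 0.0316% lower in that comparison, and 2163 had an unadjusted p under 0.05. Without LIN28B KO library 3 and over protein-coding genes only, STAT2 and SP100 rose and IFITM1 fell. With all 6 libraries and protein-coding genes only, IFITM1 was the only one of the 28 called (adjusted p = 0.0352). The adjusted p was 0.550 for STAT2 and 0.281 for SP100, and of all 11434 genes tested 13 were called higher and 18 lower. The calls with 5 libraries were 7.14% (higher) and 3.57% (lower) of the 28, against 1.08% called higher and 3.02% called lower over all genes. In that 5-library comparison 10 of the 28 had an unadjusted p under 0.05, as did 2576 of all 11308 genes tested. These 3 calls rested on the 5-library set as tested: each was lost when any further library was left out (0 genes were then called in total) and when all genes rather than protein-coding genes were tested (adjusted p = 0.0620 for IFITM1, 0.0622 for STAT2 and 0.0906 for SP100). In bulk RNA, fewer cells of a kind and less RNA per cell cannot be told apart.

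The median log2 fold change of the 28 was 0.01 with all 6 libraries, where the median of all genes was -0.13, and 0.14 with 5 libraries, where it was -0.04. Library by library, 21 of the 28 lay above the control mean in LIN28B KO library 1 (median log2 ratio 0.17, over all genes -0.011). In library 2, 18 did (0.12, over all genes -0.015). In library 3 only 8 did (-0.31), while the median of all genes there was -0.35. After cyclic loess, which evens out level-dependent shifts between libraries, the medians were 0.18, 0.13 and 0.05. On that scale the log2 fold change with all 6 libraries was 0.43 for STAT2 (adjusted p = 0.0343) and -1.24 for IFITM1 (adjusted p = 0.0389). With same-numbered libraries paired as well, neither passed in limma (adjusted p = 0.216 for STAT2 and 0.219 for IFITM1). Under cyclic loess alone, 57 of all 15803 genes tested were called higher and 54 lower. The 3 LIN28B KO values then lay all above the 3 controls for 6 of the 28 (IFI6, IFI27, DDX58, STAT2, IRF9 and SP100, 21.4%, against 13.7% of all tested genes) and all below for 3 (IFITM1, IFITM3 and ISG20, 10.7%, against 13.3%). On the deposited scale all 3 lay below for the same 3 (10.7%, against 20.1%) and above for DDX58 alone (3.57%, against 7.61%).

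**Figure D3:**
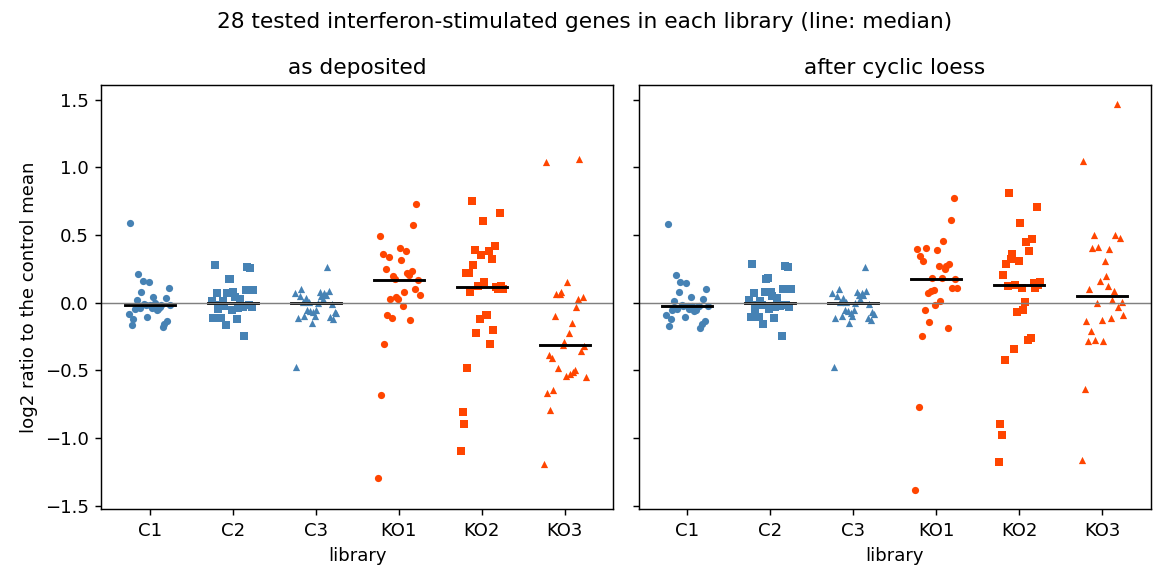
Log2 ratio of each of the 28 tested genes to its control mean in every library, as deposited (left) and after cyclic loess (right), 1 point per gene and a line at the median. LIN28B KO library 3 is shifted down as deposited (median -0.31) and is near 0 after cyclic loess (0.05).

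**Figure D4:**
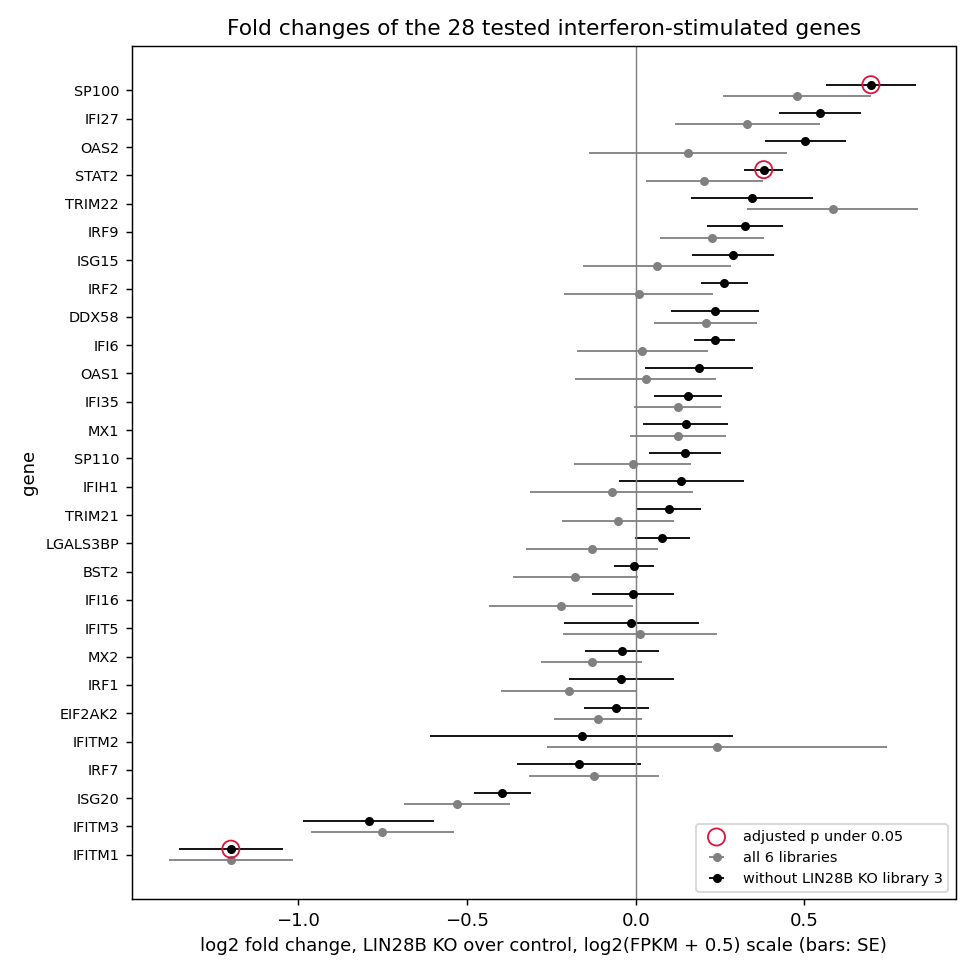
Log2 fold change of LIN28B KO over control with SE for the 28 tested genes, on the log2(FPKM + 0.5) scale, with all 6 libraries (grey) and without LIN28B KO library 3 (black). Adjustment was over all genes with 6 libraries and over protein-coding genes with 5, and circles mark an adjusted p under 0.05 in the latter (STAT2, SP100 and IFITM1).

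Among the regulators, STAT2 carries the signal of type I interferon to the nucleus. Its controls read 77.4, 81.9 and 81.8 FPKM, and LIN28B KO 105, 105 and 72.5 FPKM. The first and second LIN28B KO libraries were above every control and library 3 below every control. Without library 3 it was 0.38 higher on the log2 scale (SE 0.06, adjusted p = 0.0297), a 1.30-fold rise, and with all 6 libraries the difference was 0.20 (SE 0.17, adjusted p = 0.566). After cyclic loess all 3 LIN28B KO libraries were above the controls, by 0.45, 0.45 and 0.40 on the log2 scale. The locus is chr12:56735381-56753939 in GRCh37, the build of the files.

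IRF9, the DNA-binding partner of STAT2, had 26.5, 32.2 and 32.1 FPKM in control cells, against 35.5, 40.4 and 30.7 FPKM in LIN28B KO. The samples numbered 1 and 2 lay above all controls and that numbered 3 among them, and the log2 difference with 5 libraries was 0.32 (SE 0.11, adjusted p = 0.151). IRF2, which binds the same element and can hold it inactive, had 51.3, 51.3 and 54.6 FPKM against 60.4, 65.5 and 37.0 FPKM. Its log2 difference was 0.26 (SE 0.07, adjusted p = 0.0888) with 5 libraries and 0.01 (adjusted p = 0.987) with 6, library 3 being the lowest of all. IRF1, an activator induced mainly by interferon gamma, had 15.2, 15.5 and 16.6 FPKM against 18.4, 12.6 and 10.9 FPKM, with 1 LIN28B KO library above and the others below the controls (5 libraries: log2 fold change -0.04, adjusted p = 0.904). IRF7, which amplifies interferon production, was low at 3.08, 2.54 and 3.85 FPKM against 2.81, 2.63 and 3.03 FPKM, with overlapping groups (5 libraries: log2 fold change -0.17, adjusted p = 0.635).

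The IFITM genes encode small membrane proteins that stop viruses from fusing with the cell. IFITM1 had 3.05, 3.28 and 3.45 FPKM in control cells, against 1.03, 1.25 and 1.14 FPKM in LIN28B KO. Every LIN28B KO library was below every control, library 3 included, and their mean was 35.0% of the control mean. On the log2 scale the change was -1.20 both with 5 libraries (SE of 0.15, adjusted p = 0.0249) and with 6 (SE 0.18, adjusted p = 0.159). These tests also differ in the genes tested: over protein-coding genes the adjusted p with 6 libraries was 0.0352, and over all genes with 5 libraries it was 0.0620. The level is low and the deposited bounds of each library were wide. The lower bounds of the controls were 1.95, 1.85 and 2.14 FPKM and the upper bounds of the LIN28B KO libraries 2.36, 2.84 and 2.35 FPKM. The lower bounds of the LIN28B KO libraries were all 0. Their fragment equivalents, which express the width of the bounds and are not read counts, were 2, 2 and 4, against 31, 21 and 28 in the controls. In the files the IFITM2 locus (chr11:307631-315272, GRCh37) covers that of IFITM1 (chr11:313506-315272), and the coding sequences are closely related, so the split of reads between them is uncertain.

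IFITM3 did not pass the test. Its values were 2.34, 3.37 and 2.46 FPKM in control cells, against 1.49, 1.21 and 1.51 FPKM in LIN28B KO, with no overlap of the groups and a log2 difference of -0.79 with 5 libraries (SE 0.19, adjusted p = 0.0760) and -0.75 with 6 (adjusted p = 0.286). IFITM2 was scattered, at 2.64, 1.43 and 1.00 FPKM against 2.43, 0.69 and 3.80 FPKM, and its log2 fold change was -0.16 (SE 0.45, adjusted p = 0.867) with 5 libraries and 0.24 with 6. BST2, the fourth membrane protein, had 632, 562 and 415 FPKM in LIN28B KO. The LIN28B KO libraries 1 and 2 lay close to the controls (log2 fold change -0.01, SE 0.06, adjusted p = 0.969) and library 3 was the lowest.

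**Figure D5:**
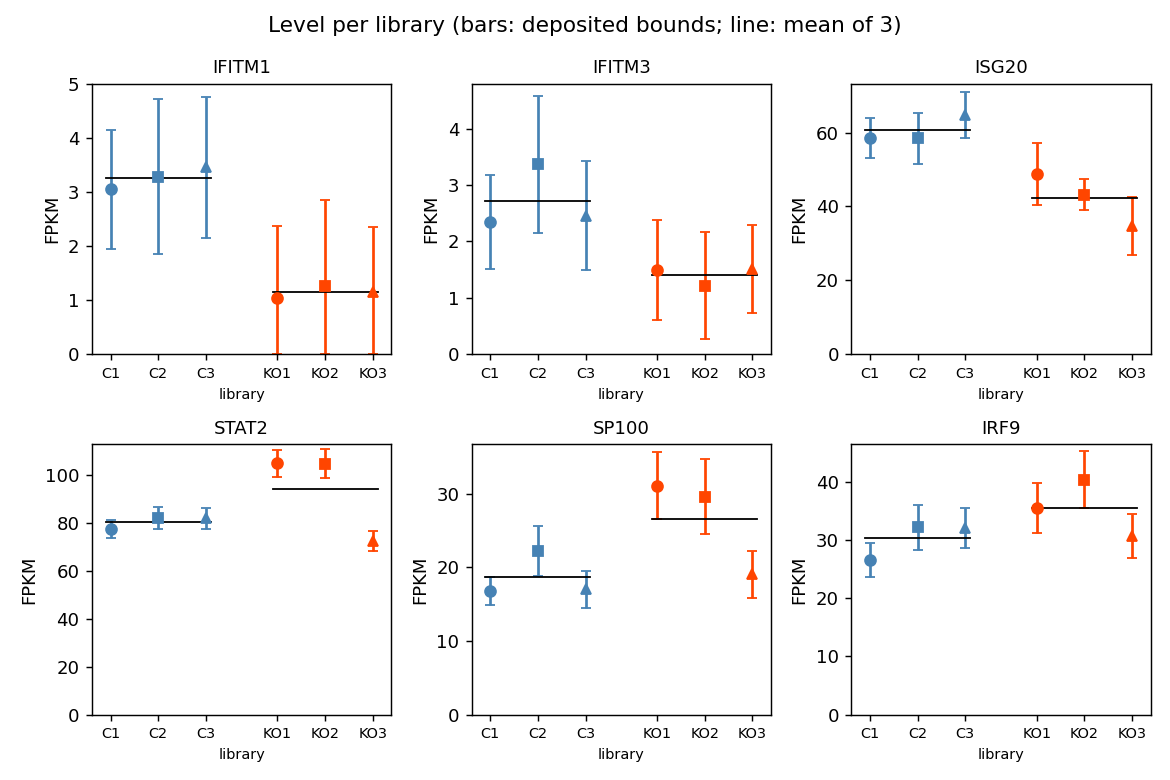
FPKM per library of IFITM1, IFITM3, ISG20, STAT2, SP100 and IRF9 (C1 to C3 controls, KO1 to KO3 LIN28B KO). Bars are the deposited lower and upper bounds and horizontal lines the mean of 3. IFITM1, IFITM3 and ISG20 are lower in every LIN28B KO library, while STAT2 and SP100 are higher in KO1 and KO2 and not in KO3.

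Among the RNA-degrading enzymes, ISG20, an exonuclease for single-stranded RNA, had 58.6, 58.5 and 64.8 FPKM in control cells, against 48.8, 43.2 and 34.7 FPKM in LIN28B KO. The groups did not overlap, and the log2 difference was -0.40 with 5 libraries (SE 0.08, adjusted p = 0.0539) and -0.53 with 6 (SE 0.16, adjusted p = 0.298). The OAS proteins make the 2′-5′ oligoadenylates that activate RNase L. OAS2 had 5.09, 5.48 and 4.95 FPKM in control cells, against 7.00, 8.10 and 3.40 FPKM in LIN28B KO, higher in 2 libraries and lowest in library 3 (5 libraries: log2 fold change 0.50, adjusted p = 0.0708). OAS1 had means of 3.55 ± 0.385 FPKM (SD, n = 3) and 3.69 ± 0.928 FPKM (SD, n = 3), with a log2 fold change of 0.19 and an adjusted p of 0.533 with 5 libraries. OAS3 and OASL were under the filter.

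The sensors of foreign nucleic acid did not pass the test either. DDX58 (RIG-I), which recognises viral RNA with a 5′ triphosphate, had 3.12, 3.34 and 3.23 FPKM in control cells, against 4.14, 3.65 and 3.64 FPKM in LIN28B KO. All LIN28B KO values were above all controls, with a log2 difference of 0.24 with 5 libraries (SE 0.13, adjusted p = 0.332) and 0.21 with 6 (SE of 0.15, adjusted p = 0.518). IFIH1 (MDA5), the sensor of long double-stranded RNA, had group means of 4.67 ± 0.578 and 4.55 ± 1.55 FPKM (SD, n = 3 each), and IFI16, a DNA sensor, 25.3 ± 3.38 and 22.0 ± 5.54 FPKM. EIF2AK2 (PKR), the kinase that halts translation on double-stranded RNA, had 17.9 ± 1.34 and 16.5 ± 1.18 FPKM. DDX60 was under the filter at 0.349 ± 0.131 and 0.438 ± 0.065 FPKM.

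Of the antiviral GTPases, MX2 had 34.0 ± 3.81 FPKM in control cells, against 31.1 ± 3.82 FPKM in LIN28B KO, and MX1 7.78 ± 0.939 and 8.50 ± 0.287 FPKM (SD, n = 3). IFIT5, the only tested gene of the IFIT family of viral RNA binders, had 1.20 ± 0.077 and 1.22 ± 0.253 FPKM. The ubiquitin-like modifier ISG15 had 5.30 ± 0.403 and 5.70 ± 1.57 FPKM, and USP18, which removes ISG15 and dampens the receptor, stood at 0.106 ± 0.015 and 0.081 ± 0.048 FPKM. IFI27 and IFI6 are small membrane proteins linked to mitochondria. IFI27 had 40.7, 42.1 and 42.8 FPKM in control cells, against 53.1, 70.9 and 39.0 FPKM in LIN28B KO. With 5 libraries its log2 fold change was 0.55 (SE 0.12, adjusted p = 0.0582), and that of IFI6, with group means of 52.1 and 54.0 FPKM, was 0.23 (adjusted p = 0.0812). For these genes the values in library 3 lay under all controls. IFI35, a regulator of cytokine signalling, had 21.0 ± 1.05 and 22.9 ± 2.25 FPKM, and LGALS3BP, a secreted glycoprotein, 28.9 ± 1.81 and 26.9 ± 6.35 FPKM.

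SP100, a component of PML nuclear bodies that restricts incoming viral genomes, had 16.8, 22.2 and 17.0 FPKM in control cells, against 31.1, 29.6 and 19.03 FPKM in LIN28B KO. LIN28B KO libraries 1 and 2 were above every control and library 3 lay among them. The rise was 0.70 on the log2 scale with 5 libraries (SE 0.13, adjusted p = 0.0411), 1.62-fold, and 0.48 with 6 (SE 0.22, adjusted p = 0.377). Its paralogue SP110, 190212 bases away on chromosome 2, had 7.75 ± 0.550 and 7.78 ± 1.45 FPKM (5 libraries: log2 fold change 0.15, adjusted p = 0.469). TRIM22, an antiviral ubiquitin ligase, had 11.2, 15.1 and 11.6 FPKM in control cells, against 18.9, 13.6 and 26.6 FPKM in LIN28B KO, with library 3 the highest (5 libraries: log2 fold change 0.34, adjusted p = 0.309), and its locus overlaps TRIM5 in the files. TRIM21, an intracellular antibody receptor, had 8.02 ± 0.166 and 7.80 ± 1.42 FPKM.

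The 13 genes under the filter were left out of the main tests, and with no filter none of them was called in limma with 6 or 5 libraries. In 5 of them (38.5%) all 3 LIN28B KO values lay above all controls, against 13.8% of 6413 protein-coding genes under the filter with a value above 0. None lay all below, against 2.79%. Those background genes needed a value above 0 in any library only. A gene at 0 in a LIN28B KO library cannot lie all above, so the shares are not matched for level. RSAD2 (viperin), which makes a chain-terminating nucleotide, had 0.105, 0.152 and 0.067 FPKM in control cells, against 0.316, 0.352 and 0.662 FPKM in LIN28B KO. PARP9, the partner of DTX3L in a ubiquitin ligase complex that modifies histones, had 0.123, 0.126 and 0.164 FPKM against 0.247, 0.337 and 0.577 FPKM. OASL, which enhances sensing by RIG-I, had 0.242, 0.151 and 0.433 FPKM against 0.527, 0.754 and 0.533 FPKM. OAS3 had 0.787, 0.731 and 0.711 FPKM against 1.12, 0.861 and 1.25 FPKM, and IFIT1 had 0.0460, 0.0259 and 0.0228 FPKM against 0.0594, 0.0710 and 0.0560 FPKM. These levels are low and their deposited bounds were wide. Fragment equivalents express the width of the bounds and are not read counts. The fragment equivalents were 0, 1 and 0 in controls against 1, 1 and 13 in LIN28B KO for RSAD2, and 3, 1 and 2 against 3, 3 and 18 for PARP9. IFIT1 had 2, 0 and 0 against 1, 1 and 1. OASL had 10, 3 and 17 against 16, 21 and 13, and OAS3 had 12, 7 and 10 against 11, 4 and 21. RSAD2, PARP9 and OAS3 were highest in library 3, the library in which low genes in general read higher. DTX3L had 0.564 ± 0.172 and 0.971 ± 0.454 FPKM, XAF1, a pro-apoptotic factor, 0.803 ± 0.133 and 1.20 ± 0.351 FPKM, IFI44 0.401 ± 0.155 and 0.975 ± 0.749 FPKM, and IFIT3 0.589 ± 0.134 and 0.923 ± 0.252 FPKM. Mean levels in LIN28B KO were 0.0161 FPKM for IFIT2 and 0.0815 FPKM for IFI44L. For the IFIT genes, LIPA, at 14.3 FPKM, overlaps IFIT1, IFIT2 and IFIT3 in the files.

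Genes that lie next to each other did not all read alike. IFIT1, IFIT2, IFIT3 and IFIT5 on chromosome 10 ranged from near 0 to 1.20 FPKM in the controls. MX1 and MX2, 10913 bases apart on chromosome 21, differed in control mean (7.78 against 34.0 FPKM). In the OAS cluster on chromosome 12, OAS3 was at 0.743 FPKM between OAS1 at 3.55 and OAS2 at 5.17 FPKM.

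The rest of the pathway was read from lists of 136 further genes, of which 132 were found. With all 6 libraries 89 passed the filter and none was called higher or lower (against 0.0633% and 0.0316% of all genes), with a median log2 fold change of -0.12. With 5 libraries 87 were tested, 1 was called higher (1.15%) and 3 lower (3.45%), close to the 1.08% and 3.02% of all genes, with a median of -0.02 against -0.04 for all genes. None of these 4 calls held when all genes were tested (adjusted p of 0.0622 to 0.0830) or when any further library was left out, and their values follow as a description. No interferon gene reached 1 FPKM: of 21 found, 18 were listed at 0 in all 6 libraries, IFNB1 among them, and IFNG, IFNK and IFNL1 had low values. The receptor and its kinases were present. IFNAR1 had 56.1, 52.8 and 56.8 FPKM in control cells, against 47.0, 52.6 and 39.4 FPKM in LIN28B KO, a log2 fold change of -0.15 with 5 libraries (adjusted p = 0.294), and IFNAR2 132, 123 and 135 against 144, 149 and 126 FPKM (0.17, adjusted p = 0.163). JAK1 had 50.2, 40.0 and 37.8 against 35.5, 49.6 and 35.0 FPKM, and TYK2 90.8, 84.2 and 77.4 against 92.2, 86.5 and 68.3 FPKM. The groups of JAK1 and of TYK2 overlapped (adjusted p = 0.974 and 0.560 with 5 libraries).

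IRF3, the factor that starts interferon transcription after sensing, had 104, 100 and 112 FPKM in control cells, against 106, 107 and 75.5 FPKM in LIN28B KO (log2 fold change 0.02, adjusted p = 0.908 with 5 libraries). Among 12 tested brakes, PTPN2, a phosphatase of JAK1, had 23.1, 21.8 and 22.7 FPKM in control cells, against 29.5, 30.0 and 24.5 FPKM in LIN28B KO (log2 fold change 0.39, SE 0.07, adjusted p = 0.0396 with 5 libraries). TRIM28, a corepressor that silences endogenous retroviruses, had 367, 370 and 370 FPKM against 299, 308 and 216 FPKM (log2 fold change -0.28, SE 0.04, adjusted p = 0.0289). Of 28 tested sensing genes, RNASEH2A, the catalytic subunit of RNase H2, had 40.0, 36.9 and 39.5 FPKM against 27.4, 30.5 and 22.5 FPKM (-0.42, SE 0.08, adjusted p = 0.0439), and TMEM173 (STING), the adaptor of cytosolic DNA sensing, 153, 160 and 158 FPKM against 130, 134 and 93.6 FPKM (-0.25, SE 0.05, adjusted p = 0.0478). Under cyclic loess PTPN2 still passed (adjusted p = 0.0403) and the 3 lower genes did not (0.0834, 0.0731 and 0.144). Of 43 further interferon-inducible genes tested with 5 libraries none was called, with a median log2 fold change of 0.04.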

How the data were processed

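RNA from 6 MOLP-8 libraries, 3 control and 3 LIN28B KO, had been sequenced, and groups were taken from the condition labels. The reads had been handled with TopHat2, HTSeq and cutadapt on GRCh37, per the submitters' processing notes, which name no versions. The authors deposited FPKM per gene, with bounds and a status, per the file headers, and which tool wrote them is not given in the sources used here. The files hold no counts. Rows of a gene were summed, the 25 genes with a failed estimate in any library were left out, and an exact 0 can be a failed estimate. Relative depth came from single-fragment steps in the bounds, and the bounds describe single libraries, not the spread between them.

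The test was limma 3.58.1 in R 4.3.3 on log2(FPKM + 0.5), with a variance trend, on genes at 1 FPKM or more in at least 3 libraries, over all genes (Benjamini-Hochberg, threshold 0.05). Fold changes of low genes are understated on this scale. The 5-library test, on GENCODE 29 protein-coding genes, leaves out LIN28B KO library 3. The script was tested on simulated data. The members, the other gene lists and the 5-library test were chosen with earlier results of these data known. Every member is named, with values in each library for members that passed a test, did not overlap between groups or belong to the STAT, IRF and IFITM genes, and for a few others (OAS2, IFI27, TRIM22 and BST2) chosen after their values were seen. In the other lists the called genes and IFNAR1, IFNAR2, JAK1, TYK2 and IRF3 are named; 1 item is not reported here. With 3 libraries against 3 an exact permutation test cannot go below 0.1, so none was used. Alternatives were other pseudocounts, filters, scalings, gene sets, no variance trend, a replicate block and leaving out libraries.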

Additional observations from a re-analysis of the deposited data

How the results depend on the processing

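With all 6 libraries the count of members called stayed at 0 except that cyclic loess called 1 higher and 1 lower, and 1 lower was called without the variance trend and with protein-coding genes only. The median log2 fold change of the members was 0.01 and became 0.064 with no filter, 0.039 with quantile scaling and 0.10 with cyclic loess, with or without the replicate block; leaving out 1 library gave -0.087 to 0.14. With 5 libraries 2 were called higher and 1 lower. No filter, the replicate block (with or without cyclic loess) and testing all genes gave 0 higher and 0 lower, no variance trend gave 0 higher, and leaving out any 1 of the 5 libraries gave 0 to 0 in each direction (the lone LIN28B KO library, where 1 is left, is assumed to vary like the controls). The 5-library median of 0.14 was 0.15 with a pseudocount of 0.1, 0.13 with a pseudocount of 1, 0.15 with quantile scaling, 0.15 with cyclic loess, 0.10 with the replicate block and 0.12 with the block and cyclic loess, and 0.10 to 0.17 leaving out 1 library. Same-numbered libraries did not deviate together (correlations -0.02, 0.04 and -0.03), so the replicate block pairs numbers only. The log2 fold change of LIN28B was -1.66 with the replicate block (adjusted p = 0.0604) and -1.75 to -1.50 leaving out 1 library (adjusted p 0.00957 to 0.185). The other pathway genes called lower with 5 libraries went from 3 to 0 under cyclic loess. Testing all genes, an alternative chosen after seeing the data for these lists, took the higher ones from 1 to 0 and the lower ones from 3 to 0. IFITM1, STAT2 and SP100 kept their direction under every alternative, with 5-library log2 fold changes of -1.44 to -0.99, 0.35 to 0.47 and 0.63 to 0.82. The causes were not tested. Low levels limit the IFITM genes and the 13 genes under the filter.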

Other observations

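Among interferon-inducible genes outside the 41, several were abundant in the controls: BATF2, a transcription factor of interferon-treated cells, at 481, 451 and 431 FPKM, and ADAR, which edits double-stranded RNA, at 318, 323 and 336 FPKM. In LIN28B KO BATF2 had 424, 435 and 284 FPKM (limma adjusted p = 0.441 with 5 libraries) and ADAR 358, 356 and 270 FPKM (0.149). The chemokine genes CXCL10 and CXCL11 had at most 0.123 and 0.0678 FPKM in all 6 libraries. Of the 9 plasma cell markers tested with 5 libraries, 5 had a log2 fold change above 0 and 4 below (median 0.03), and 2 were called higher and none lower, against 1.08% and 3.02% of all genes. With all 6 libraries none of the 9 was called in limma. Over protein-coding genes the adjusted p with 6 libraries was 0.0833 for SLAMF7 and 0.409 for TNFRSF17. SLAMF7 had 51.6, 41.9 and 49.7 FPKM in control cells, against 92.8, 89.8 and 66.3 FPKM in LIN28B KO (log2 fold change 0.93, adjusted p = 0.0198 with 5 libraries). TNFRSF17, the receptor BCMA, had 118, 121 and 132 FPKM against 160, 168 and 126 FPKM, with library 3 among the controls (0.41, adjusted p = 0.0329 with 5 libraries). When all genes were tested the adjusted p was 0.0482 for SLAMF7 and 0.0691 for TNFRSF17, and leaving out any further library left no gene called.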
